A study of Mus musculus with 6 samples.

Results

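The cytosolic ribosomal protein genes were taken as every protein-coding gene of the count table whose symbol follows the Rps or Rpl naming scheme, together with Rpsa, Rplp0, Rplp1 and Rplp2. Symbols of annotated pseudogenes were left out. This gave 81 of 55401 gene identifiers, 31 for proteins of the small subunit and 50 for proteins of the large subunit. Their RNA was measured in 3 lacrimal gland samples of control ICR mice, an outbred stock, and 3 of NOD/Ltj mice, inbred animals that develop autoimmunity by themselves and serve as a model of Sjögren's syndrome. Polyadenylated RNA of the whole gland was sequenced, and the libraries held 58426580 to 76554340 estimated counts. The labels name no treatment, age or sex. Nor do they state whether a sample is 1 animal or a pool, so the p-values reflect only how these samples vary, which may be technical. The series compares the transcripts of the gland between both kinds of mice.

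The ribosome is built from ribosomal RNA and a set of proteins, nearly all present once in each particle. Every nucleated cell expresses their genes, and a secretory gland relies on them to make the proteins of its tears. Many of their mRNAs begin with a run of pyrimidines, the terminal oligopyrimidine tract, through which mTOR and Larp1 control their translation. In mammalian genomes most of these genes have processed pseudogenes, copies of the spliced mRNA pasted elsewhere in the genome. Such copies can be nearly identical to the gene, so sequencing reads may match both.

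Of the 81 genes, 80 had enough counts to be tested, and Rps2 alone passed the test. Rps2, a small subunit protein near the mRNA entrance, rose about 4.40-fold in NOD/Ltj. No other member was called in either direction, but a shallow difference ran through the family: 65 of the 80 had a lower fitted level in NOD/Ltj (43 under another scaling), and the median log2 fold change was −0.18. When the counts of annotated near-identical copies were added to each gene, Rps2 did not pass the test (log2 fold change −0.054 ± 0.28 SE, adjusted p = 0.968; 0.25 and adjusted p = 0.596 without ICR 1), nor did any other member.

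The reference sequences of Rps2 and of its copy with the most counts in ICR, the processed pseudogene Rps2-ps13, show how little separates them. Here and for the pairs below, the sequences of the ICR and NOD/Ltj mice were not examined and may differ. Over the 882 bases of the Rps2 coding sequence they differed at 7 positions (T60A, A84G, T204C, G300A, C444T, C453A and T756C), with the base of the gene first, positions counted from 1 at the A of its start codon, and the base of the copy last. The 60 bases shown are from positions 42 to 101 and lie in a coding exon of Rps2 at chr17:24720317-24720376 (plus strand) and in Rps2-ps13 at chrX:52898629-52898688 (plus strand), both in the mouse build GRCm38. Capitals mark the bases that differ.
Rps2: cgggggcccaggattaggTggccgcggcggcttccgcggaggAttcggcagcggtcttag
Rps2-ps13: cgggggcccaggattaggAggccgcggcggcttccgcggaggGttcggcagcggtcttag

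Rpl26, a large subunit protein beside the exit tunnel of the nascent peptide, and its copy Gm15772 were closer still. They differed at 2 of 438 positions of the coding sequence (C177T and T288C, read as above). The window holds positions 250 to 309, at chr11:68903260-68903319 (plus strand) in the gene and chr5:3236680-3236739 (plus strand) in the copy.
Rpl26: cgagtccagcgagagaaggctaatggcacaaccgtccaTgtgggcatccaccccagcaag
Gm15772: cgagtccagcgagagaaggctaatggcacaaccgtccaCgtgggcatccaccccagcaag

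Rps24, a small subunit protein whose gene is mutated in some cases of Diamond-Blackfan anaemia, differed from its copy Rps24-ps3 at 4 positions (C207T, G273C, G360T and C380T) over the 390 aligned of 393 coding bases. Positions 331 to 390 are shown, at chr14:24493434-24493493 (plus strand) and chrX:79195377-79195436 (plus strand).
Rps24: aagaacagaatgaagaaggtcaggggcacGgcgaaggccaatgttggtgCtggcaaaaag
Rps24-ps3: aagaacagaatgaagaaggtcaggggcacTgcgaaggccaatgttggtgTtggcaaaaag

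Rps27a, whose protein is made as a fusion to ubiquitin, differed from Rps27a-ps2 at 1 position, A375G, over the 467 aligned of 471 coding bases. Positions 345 to 404 are shown, at chr11:29545947-29546006 (minus strand) and chr9:83410004-83410063 (plus strand).
Rps27a: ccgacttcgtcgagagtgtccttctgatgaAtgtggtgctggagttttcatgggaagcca
Rps27a-ps2: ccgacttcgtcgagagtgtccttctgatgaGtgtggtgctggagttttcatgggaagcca

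Among the small subunit genes, Rps2 stood apart from the rest. Its level was 23.5, 24.2 and 25.0 CPM (counts scaled by library size and TMM factor) in ICR and 100.8, 121.4 and 97.3 CPM in NOD/Ltj. Every NOD/Ltj library lay far above all ICR libraries, and NOD 2 was the highest, while the ICR libraries differed little among themselves. The log2 fold change was 2.14 ± 0.18 SE, with an adjusted p of 0.0047 in edgeR's quasi-likelihood test with Benjamini-Hochberg adjustment over 18537 genes. The threshold was an adjusted p of 0.05, and by that rule 1.88% of all genes tested were called higher, 0.361% lower and 2.24% in either direction. A count of 1 higher and 0 lower among 80 members is thus close to these shares. Rps2 had the 13th smallest p of all genes tested. DESeq2 and limma-voom likewise called Rps2 and no other member, where DESeq2 called 6.42% of all genes and limma-voom 0.771%. Without NOD 3 Rps2 was not called, with a log2 fold change of 2.20 and an adjusted p of 0.0509. In that fit only 13 of all genes tested were called, against 416 with all libraries.

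Set against the other members within each library, which no scaling between libraries can move, Rps2 was at 14.1, 17.8 and 22.7% of their median CPM in ICR. In NOD/Ltj it was at 88.6, 92.2 and 85.2% of that median. The log2 difference to the median averaged −2.49 ± 0.35 (SD, n = 3) in ICR. In NOD/Ltj it averaged −0.17 ± 0.058 (SD, n = 3), a difference of 2.31 between the strains. Rps2 was thus far below the middle of the family in ICR and slightly below it in NOD/Ltj.

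**Figure D1:**
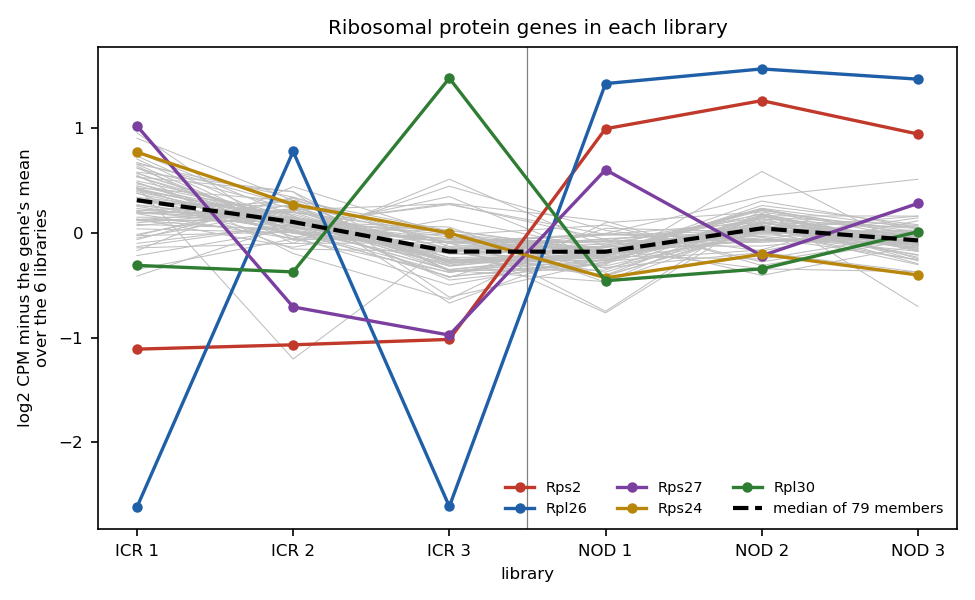
Each line is 1 ribosomal protein gene, as log2 CPM minus its mean over the 6 libraries; lines join libraries only to follow a gene, and the dashed line is the median of the 79 members with counts in every library. Most genes (grey) stay near the median, which is 0.31 in ICR 1 and −0.18 in ICR 3 and NOD 1, while Rps2 is low in all ICR libraries and Rpl26 in ICR 1 and ICR 3.

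The annotation held 31 near-identical copies of Rps2 (at least 95% identity over at least 250 bases). These copies had more counts than the gene in every ICR library and in NOD 1 and NOD 3, but not in NOD 2. Rps2 itself held 7.27, 12.2 and 14.8% of the summed counts of gene and copies in ICR, and 47.2, 50.8 and 45.4% in NOD/Ltj. The sum was 324, 199 and 169 CPM in ICR and 213, 239 and 214 CPM in NOD/Ltj, so the groups overlapped. ICR 1 was the highest of all, while ICR 2 and ICR 3 lay below every NOD/Ltj library. Without ICR 1 the log2 fold change of the sum was 0.25 ± 0.20 SE (adjusted p = 0.596, edgeR), against 2.10 for Rps2 alone. As means it was 231 ± 82.2 CPM (SD, n = 3) in ICR and 222 ± 14.7 CPM (SD, n = 3) in NOD/Ltj.

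The copies named here were chosen after their values were seen. Rps2-ps13 stood at 165.0, 89.5 and 68.8 CPM in ICR and 19.4, 21.3 and 21.8 CPM in NOD/Ltj, and it fell by 2.37 on the log2 scale (adjusted p = 0.0163, edgeR). Rps2-ps10, also a processed pseudogene, had 48.6 ± 17.4 CPM (SD, n = 3) in ICR and 22.3 ± 0.79 CPM (SD, n = 3) in NOD/Ltj, with an adjusted p of 0.0865 in edgeR. Other copies went the other way: Rps2-ps6 rose, with 3.73 ± 1.05 CPM in ICR against 18.7 ± 0.67 CPM in NOD/Ltj (SD, n = 3 each; adjusted p = 0.0098, edgeR). So did Gm11249, with 0.67 ± 0.090 CPM in ICR against 4.41 ± 0.70 CPM in NOD/Ltj (SD, n = 3 each; adjusted p = 0.0108, edgeR). Within this set of near-identical sequences, the gene and both of these copies were thus higher in NOD/Ltj while Rps2-ps13 was lower. How reads that match several of them were assigned is not given in the sources used here, and its part in the difference of Rps2 was not tested.

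The same opposition of gene and copy was seen for Rpl26, in which 1 ICR library differed from the other ICR libraries. Rpl26 stood at 14.9, 156.5 and 15.0 CPM in ICR and 245.1, 270.1 and 252.4 CPM in NOD/Ltj. The groups did not overlap, but ICR 2 lay about midway to the NOD/Ltj libraries, and the log2 fold change of 2.04 ± 0.90 SE did not pass the test (adjusted p = 0.397). Without ICR 2 it was 4.10 and was called (adjusted p = 0.0066). Its copy Gm15772 had 277.6, 131.4 and 225.1 CPM in ICR and 9.50, 12.7 and 11.7 CPM in NOD/Ltj, and fell by 4.22 on the log2 scale (adjusted p = 0.0046, edgeR). In ICR 2, where the gene was higher, the copy was lower than in the other ICR libraries. Rpl26 held 5.06, 54.1 and 6.20% of the counts of gene and 7 copies in ICR, and 95.7, 95.0 and 95.0% in NOD/Ltj. Their sum was 275 ± 30.1 CPM (SD, n = 3) in ICR and 269 ± 14.5 CPM (SD, n = 3) in NOD/Ltj, a log2 fold change of −0.036 with an adjusted p of 0.970 in edgeR.

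For Rps24 the copy was on the other side. The gene had 645.1, 456.2 and 377.7 CPM in ICR and 280.9, 328.4 and 286.2 CPM in NOD/Ltj, so every NOD/Ltj library was lower. Its log2 fold change of −0.72 ± 0.27 SE had an unadjusted p of 0.0302 and did not pass the test (adjusted p = 0.314, edgeR). Rps24-ps3 had 2.62, 2.44 and 2.60 CPM in ICR and 94.4, 121.0 and 96.2 CPM in NOD/Ltj, a rise of 5.35 on the log2 scale (adjusted p = 0.00026, edgeR). The gene held 98.1 to 98.8% of the counts of gene and 8 copies in ICR and 72.0 to 73.6% in NOD/Ltj. With the copies added, the log2 fold change of Rps24 was −0.29 (adjusted p = 0.748, edgeR), and −0.067 without ICR 1.

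Shares of gene and copies also moved between single libraries of a strain. Rps27a held 77.1, 74.2 and 75.5% in ICR, and 42.8, 75.1 and 42.3% in NOD/Ltj, where NOD 2 was at the ICR level. Rpl30, a large subunit protein, held 10.7, 13.1 and 48.2% in ICR and 14.03, 11.5 and 16.8% in NOD/Ltj, so ICR 3 alone was high. Rps27, a small subunit protein with a zinc finger, held 83.8, 31.0 and 33.3% in ICR and 91.8, 32.9 and 56.7% in NOD/Ltj. The groups overlapped for all 3 genes. The counterpart of Rps27 was Rps27rt, a protein-coding copy at 100% identity over 341 bases. Rps26, a small subunit protein, held 80.5, 80.4 and 93.6% in ICR and 93.9, 99.2 and 97.0% in NOD/Ltj, where ICR 3 lay just under the NOD/Ltj libraries.

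**Figure D2:**
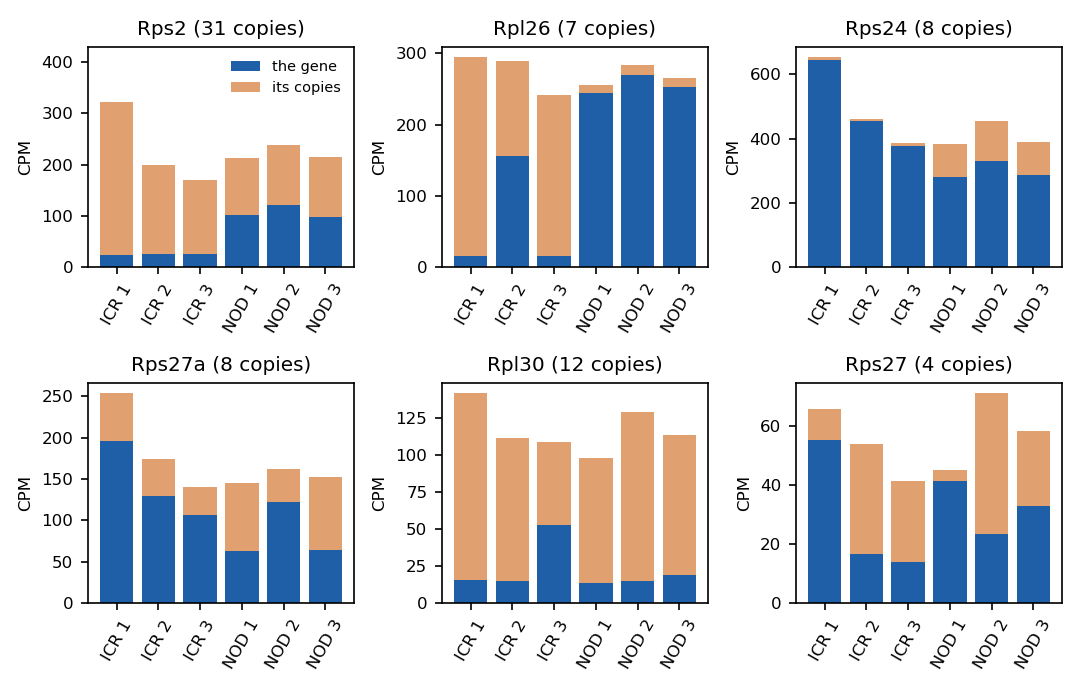
Stacked bars give the CPM of 6 ribosomal protein genes (blue) and of their near-identical copies (orange) in each library. For Rps2 and Rpl26 the blue part is larger in NOD/Ltj while the whole bars of the strains overlap in height (Rps2 sums 169 to 324 CPM in ICR and 213 to 239 CPM in NOD/Ltj); the blue bar of Rpl30 is high only in ICR 3.

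Across the family, 72 of the 81 genes had at least 1 such copy, 585 copies in all, of which 571 were annotated as processed pseudogenes. Rpl21, a large subunit protein, had the most, with 59. The copies of Rpl29 included Uimc1, a protein-coding gene that matched it on the opposite strand over 441 bases. The counts of Uimc1, 2020 to 3270 a library, were added whole to those of Rpl29. The mean own share of 6 genes differed by over 10 percentage points between the strains (Rpl26, Rps2, Rps24, Rps27a, Rps26 and Rps27). Another 8 (Rpl7a, Rpl17, Rpl21, Rpl29, Rpl30, Rpl34, Rpl35a and Rps18) held under 50% of the counts of gene and copies in every library, so their listed levels are uncertain. Rps2 held under 50% in every library but NOD 2, so its listed level is uncertain too.

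With copies added for every member, none was called by edgeR in either direction, where 2.23% of all genes tested were (1.87% higher and 0.356% lower). Rpl37a, a large subunit protein, was the only member with an unadjusted p under 0.05 in that fit, with a log2 fold change of −0.51 and an adjusted p of 0.381 in edgeR. Among the 76 members with at least 5 CPM in a strain, the log2 fold changes then ran from −0.51 to 0.11. The written plan of results did not list the addition of copies. The extension to all members was made after the data had been seen.

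**Figure D3:**
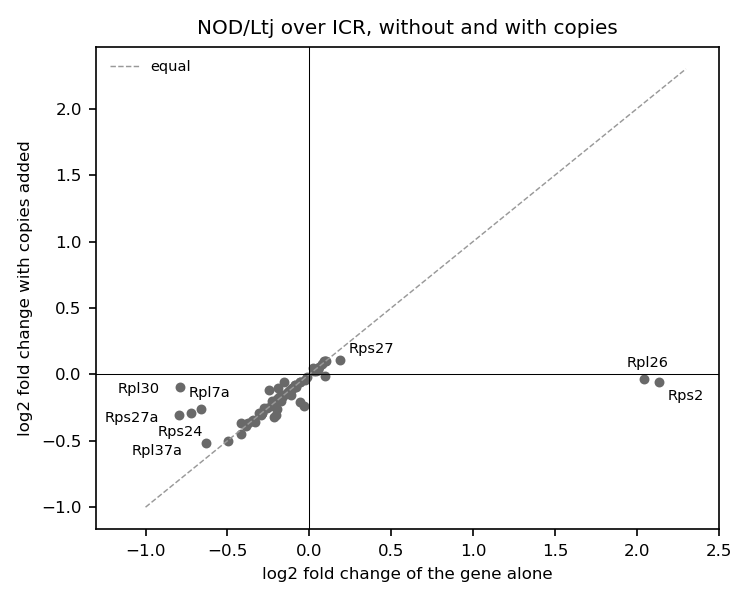
Each point is 1 of the 76 ribosomal protein genes with at least 5 CPM in a strain: the log2 fold change of the gene alone (horizontal) and with its copies added (vertical), NOD/Ltj over ICR; the dashed line marks equal values. Rps2 and Rpl26 lie at 2.14 and 2.04 on the horizontal axis and at −0.054 and −0.036 on the vertical one, and all 76 lie between −0.51 and 0.11 vertically.

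The rest of the family differed little between the strains. Of 80 members, 72 had a log2 fold change within 0.5 of 0, with quartiles at −0.28 and −0.059. The median corresponds to 0.885-fold. All genes tested had a median of −0.029 and quartiles at −0.32 and 0.29, so the members were centred slightly lower and lay closer together. Negative values were found for 81.2% of members and 53% of all genes. Small subunit genes had a median of −0.19 (27 of 31 negative), large subunit genes −0.13 (38 of 49 negative). The members share libraries and scaling, so they are not independent of each other.

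The size of this shallow difference depended on the scaling between libraries. With library totals in place of TMM factors, 48 of 80 members (60% against 81.2%) were negative and the median was −0.057. With scaling on the ribosomal protein genes other than Rps2, 43 (53.8%) were negative and the median was −0.015. The median of all genes also moved, to 0.093 and 0.11. Relative to all genes the members were at −0.15 with TMM, −0.15 with library totals and −0.13 with scaling on the members.

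The median also moved with single libraries. Members tended to be high in ICR 1, the highest library for 53 of the 80 genes tested, and low in ICR 3 (the lowest for 37) and NOD 1 (the lowest for 26). Without ICR 1 the median was −0.060, and without ICR 3 it was −0.27. The share of all counts in ribosomal protein genes was 1.63, 0.967 and 0.843% in ICR and 0.826, 1.45 and 1.08% in NOD/Ltj. The means of 1.15% ± 0.43 and 1.12% ± 0.31 (SD, n = 3 each) did not differ beyond the spread (two-sided exact permutation test, p = 0.9, the smallest possible being 0.1). A lower share of cells rich in these transcripts and less transcript per cell cannot be told apart in RNA of a whole gland.

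Other cell types moved with the strains and with ICR 1. The summed B cell markers ran from 18.2 to 20.2 CPM in ICR and from 234 to 1042 CPM in NOD/Ltj, with 11 of 12 called higher, and 6 of 12 T cell markers were called higher (13.4 to 17.4 against 49.0 to 122 CPM). Fibroblast markers summed to 3007 CPM in ICR 1, to 609 and 649 CPM in the other ICR libraries and to 429 to 575 CPM in NOD/Ltj. All 8 were negative (median −1.54), 4 of them at an unadjusted p under 0.05, and 0 were called by edgeR. Macrophage markers were also highest in ICR 1 (192 CPM). Duct markers were lower in every NOD/Ltj library (582 to 925 CPM in ICR, with ICR 1 highest, and 512 to 569 CPM in NOD/Ltj), with 10 of 10 negative, 3 at an unadjusted p under 0.05 and 0 called by edgeR. Endothelial markers were higher in every NOD/Ltj library (42.7 to 54.2 against 69.3 to 78.3 CPM), with 0 called by edgeR (an unadjusted p under 0.05 for 3 of 8, of which 2 were higher). Harderian and sebaceous gland markers were lower in every NOD/Ltj library (359 to 377 against 266 to 296 CPM), with 4 of 6 negative and 0 called by edgeR. Salivary gland markers varied widely within both strains, with 583, 1146 and 11730 CPM in ICR and 44.8, 2044 and 67.3 CPM in NOD/Ltj. Skeletal muscle markers were highest in ICR 3 (107 CPM, at most 4.19 elsewhere). Acinar markers, which define the secretory cells of the gland, were present throughout (2532 to 3732 CPM in ICR and 2708 to 2965 CPM in NOD/Ltj, 1 of 12 called lower). The part of these differences in the values of Rps2 and of the family was not tested.

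**Figure D4:**
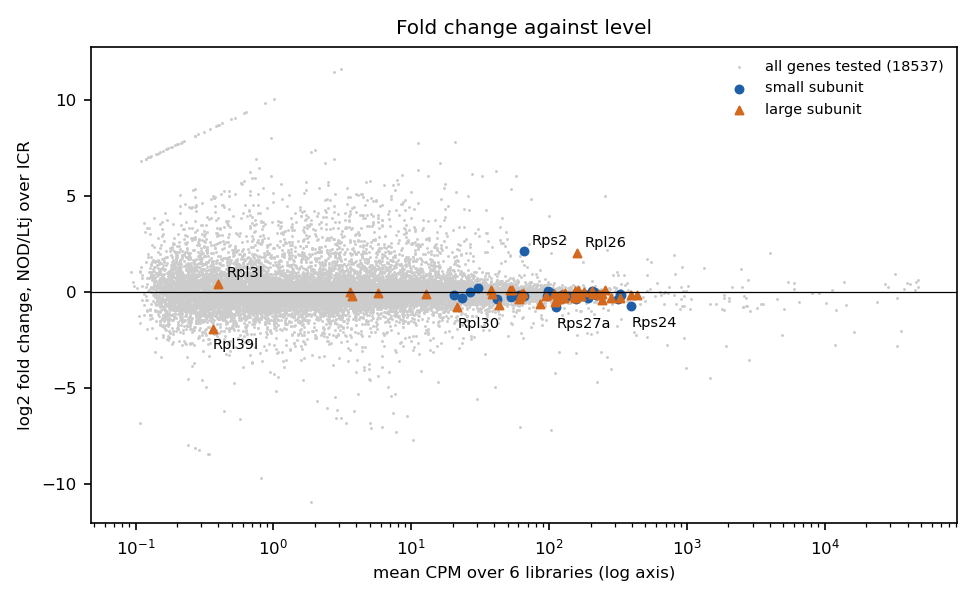
Log2 fold change, NOD/Ltj over ICR, against mean CPM (log axis) for all 18537 genes tested (grey), with small subunit (blue circles) and large subunit (orange triangles) ribosomal protein genes. Most members lie in a narrow band just under 0 (median −0.18). Rps2 and Rpl26 lie near 2, and the weakly expressed Rpl39l at −1.90. Rps27a, Rpl30, Rps24, Rpl7a and Rpl37a lie between −0.79 and −0.63.

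Groups without overlap were no more frequent in the family than elsewhere. Apart from Rps2 and Rpl26, which were higher (2.5% of members, against 11.2% of all genes tested), 6 members were lower in every NOD/Ltj library (7.5%, against 8.89% of all genes). Over both directions 20% of all genes did not overlap. These were Rps24, Rpl37a, Rpl7a, Rpl36al, Rpl28 and Rpl35. At an unadjusted p under 0.05 there were 2 lower members, Rps24 and Rpl37a, where 5.05% of all genes passed, and 1 higher, Rps2, where 8% did. Rpl37a, which binds zinc, had 130.9, 105.0 and 77.4 CPM in ICR and 65.9, 72.9 and 64.0 CPM in NOD/Ltj, with a log2 fold change of −0.63 ± 0.23 SE (adjusted p = 0.300, edgeR). ICR 3 lay only slightly above the NOD/Ltj libraries. Rpl37a held a mean of 94.8% of the counts of gene and 4 copies in ICR and 87.8% in NOD/Ltj. Its copy Gm4613 was higher in NOD/Ltj, with means of 0.34 CPM in ICR and 5.59 CPM in NOD/Ltj (adjusted p = 0.0042, edgeR). Another copy, Gm4149, had 4.70 and 2.28 CPM and was not called (adjusted p = 0.370, edgeR).

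The other members with the most negative values, among those with at least 5 CPM in a strain, did not pass the test either. Rps27a had a log2 fold change of −0.79 ± 0.35 SE (adjusted p = 0.399, edgeR) and Rpl30 one of −0.79 ± 0.50 SE (adjusted p = 0.583, edgeR). With copies added, Rps27a was at −0.31 and Rpl30 at −0.093. The large subunit gene Rpl7a had 79.5 CPM in ICR 1 and 31.7 to 40.7 CPM in the other libraries (−0.66 alone, −0.26 with its 38 copies). Its groups did not overlap, yet ICR 1 set most of the difference between their means of 53.1 ± 22.9 and 33.6 ± 2.76 CPM (SD, n = 3 each). Rpl9 (−0.50), and Rpl3 (−0.42), which reaches the catalytic centre of the large subunit, were likewise highest in ICR 1, with 169.6 and 168.4 CPM.

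Rpl5 and Rpl11 form a complex that binds Mdm2 and so stabilises p53 when ribosome assembly fails. Rpl5 had 342.3, 310.6 and 184.0 CPM in ICR and 197.4, 229.6 and 198.5 CPM in NOD/Ltj (log2 fold change −0.42 ± 0.28 SE, adjusted p = 0.609, edgeR). Rpl11 had 165.0, 160.9 and 142.0 CPM in ICR and 159.2, 172.2 and 167.0 CPM in NOD/Ltj (0.091 ± 0.19 SE, adjusted p = 0.905, edgeR). The groups overlapped for both genes.

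Behind Rps2 and Rpl26, the most positive values among members with at least 5 CPM in a strain were small. Rps27 stood at 55.0, 16.6 and 13.8 CPM in ICR and 41.2, 23.3 and 32.9 CPM in NOD/Ltj (0.19 ± 0.52 SE). Its spread within ICR exceeded the difference between the strains. Rpl39, a small protein lining the exit tunnel, was at 0.11, Rpl36 at 0.095, Rpl17, another tunnel protein, at 0.095 and Rpl13a, which also takes part in translational silencing after interferon-γ, at 0.081. All 4 had adjusted p above 0.88 and overlapping groups.

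Of the proteins best known for regulation or disease, none was called. Rps6, the substrate of S6 kinase, had 438.0, 351.4 and 261.9 CPM in ICR and 288.9, 343.4 and 303.9 CPM in NOD/Ltj (−0.17 ± 0.26 SE, adjusted p = 0.865, edgeR). All NOD/Ltj values fell inside the ICR range. Rps19, the gene most often mutated in Diamond-Blackfan anaemia, had 57.4 ± 4.46 and 48.3 ± 5.94 CPM (SD, n = 3 each, −0.25), and Rps14, whose loss underlies the anaemia of the human deletion on the long arm of chromosome 5, 231 ± 47.7 and 207 ± 25.8 CPM (SD, n = 3 each, −0.16). The stalk that recruits elongation factors is made of Rplp0, Rplp1 and Rplp2. Their log2 fold changes were −0.31 ± 0.34 SE, −0.060 ± 0.24 SE and −0.35 ± 0.26 SE, with adjusted p of 0.794, 0.958 and 0.665 in edgeR.

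Levels per kilobase of transcript allow genes to be compared with each other only roughly. The length is taken from annotated transcripts, not from those present in the gland. A long annotated transcript lowers a gene's rank, as for Rps15a (5130 bases) and Rps20 (3706 bases). Over all libraries the 5 highest were Rps24 with 754 CPM per kb, Rpl10, which joins the large subunit late in its assembly (472), Rpl41, the shortest ribosomal protein (463), Rps6 (377) and Rps15, a small subunit protein near the decoding centre (357). Rps24 was highest in both strains, with 939 CPM per kb in ICR and 569 in NOD/Ltj. Rpl26 ranked 55th in ICR (109.8 CPM per kb) and 2nd in NOD/Ltj (452), close to Rpl10 (450) and Rpl41 (445). Rpl34 (10.4), Rpl29 (5.04) and Rpl21 (3.48 CPM per kb) were among the 5 lowest. Those last 3 were among the genes outweighed by their copies. With its 59 copies added, Rpl21 summed to 225 ± 16.4 CPM (SD, n = 3) in ICR and 226 ± 13.0 CPM (SD, n = 3) in NOD/Ltj, where the gene alone had 3.98 ± 1.07 and 3.44 ± 0.17 CPM (SD, n = 3 each). Rps2 ranked 75th of 80 in ICR (23.2 CPM per kb) and 54th in NOD/Ltj (101.8 CPM per kb).

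Tissue-restricted paralogs were near or at the detection limit. Rpl10l, a testis paralog of Rpl10, had 0 counts in every library and was not tested. If a fragment gives 4 counts, which was not established, a count of 0 allows up to 12 counts, or 0.149 to 0.222 CPM. That limit is for a count of 0 and covers counting error only. Rpl39l, a testis paralog of Rpl39, had 106, 8 and 4 counts in the ICR libraries and 0, 11 and 21 in those of NOD/Ltj. Only ICR 1 and NOD 3 had more than 12 counts. Rpl3l, the striated muscle paralog of Rpl3, had 35, 10 and 20 counts in the ICR libraries and 20, 38 and 35 in those of NOD/Ltj. Neither Rpl39l (adjusted p = 0.677) nor Rpl3l (adjusted p = 0.844) passed edgeR's test.

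Paralogs with wide expression were well covered. Rps27l, a paralog of Rps27 and a p53 target, had 64.3 ± 14.8 CPM (SD, n = 3) in ICR and 56.7 ± 6.87 CPM (SD, n = 3) in NOD/Ltj. Rpl36al, a paralog of Rpl36a, had 124.2, 135.2 and 140.8 CPM in ICR and 111.3, 87.7 and 106.8 CPM in NOD/Ltj, groups without overlap (−0.39 ± 0.19 SE, adjusted p = 0.454, edgeR). Its partner Rpl36a had 66.5 ± 15.4 and 64.0 ± 1.56 CPM (SD, n = 3 each). Rps4x, the X-linked small subunit gene, had 518.8, 340.4 and 223.0 CPM in ICR and 248.6, 329.4 and 248.4 CPM in NOD/Ltj, which overlapped. Rps4l is annotated as a transcribed processed pseudogene and is no member.

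The pyrimidine run at the transcript start was looked for as the word CTTTC, the word CTTTT, the word CTTCC or the word CTTCT, from 20 bases before to 30 after the start site. RefSeq start sites on GRCm38.p6 were matched for 61 of the 81 genes. At least 1 word, overlapping words counted once, was found on the transcript strand in 43 of them (70.5%), and on the other strand in 18 (29.5%). Of all 27025 genes with a start site, 28.4% held a word on the transcript strand and 31.4% on the other. Among mitochondrial ribosomal protein genes it was 27.5% of 69. A match is a description of these letters, not a mapped start.

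Starts are shown for Rps6, whose protein lies on the mTOR pathway, for Rpl7a, and for Rps2 and Rpl26, with 15 bases on each side of the RefSeq start and the words in capitals. They lie at chr4:86857353-86857382 (minus strand), chr2:26910792-26910821 (plus), chr17:24720048-24720077 (plus) and chr11:68901551-68901580 (plus). No word lies in the bases shown for Rpl26.
Rps6: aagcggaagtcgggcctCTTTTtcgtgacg
Rpl7a: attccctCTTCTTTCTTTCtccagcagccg
Rps2: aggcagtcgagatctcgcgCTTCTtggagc
Rpl26: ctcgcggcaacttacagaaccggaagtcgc

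Genes that act with the ribosomal proteins were described from 9 lists, and edgeR called none of their genes. DESeq2 and limma-voom also called none, except for 3 mitochondrial ribosomal protein genes that DESeq2 called lower. Of 7 ribosomal genes outside the naming scheme, 6 were negative (median −0.21). Rps3a1, a small subunit protein, had −0.47 and Rpl7l1, an assembly paralog of Rpl7, −0.41. Initiation factors had a median of −0.17 with 32 of 37 negative and 0 at an unadjusted p under 0.05. Their largest values were those of Eif2b4, a subunit of the guanine exchange factor of eIF2 (−0.42), and Eif5b, which joins the subunits (−0.39).

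Elongation and release factors had a median of −0.27 with 13 of 14 negative and 1 at an unadjusted p under 0.05. Eef1b2, the exchange factor of eEF1A, had −0.50 and Eef1a2, a tissue-restricted form of eEF1A, −0.49. Ribosome assembly factors had a median of −0.17 with 47 of 54 negative and 2 at an unadjusted p under 0.05. Mrto4, which precedes the stalk protein on the growing large subunit, had −0.63 and Wdr12 −0.49. Aminoacyl-tRNA synthetases had a median of −0.25 with 16 of 19 negative and 1 at an unadjusted p under 0.05, with Tars, for threonine, at −0.56 and Nars, for asparagine, at −0.40.

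The list of RNA polymerase I, which transcribes ribosomal RNA, had a median of −0.14 with 10 of 19 negative and 2 at an unadjusted p under 0.05. Polr2k, a subunit shared by the RNA polymerases, had −1.12 and Cd3eap −0.70. The mTOR list had a median of 0.039 with 11 of 29 negative, and Rptor, the scaffold of mTOR complex 1, had the largest value there (0.52), followed by Eif4ebp3 (0.50). The list on ribosomal protein surveillance and p53 had a median of 0.045 with 11 of 25 negative. Its largest values were those of Trp53, which encodes p53 (0.49), and Gtpbp2, which acts in ribosome rescue (0.38). Neither of these lists had a gene at an unadjusted p under 0.05.

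The 78 mitochondrial ribosomal protein genes, which build the separate ribosome of mitochondria, had a median of −0.13 with 52 negative and 3 lower at an unadjusted p under 0.05. Mrps18a had 16.7 ± 7.25 CPM (SD, n = 3) in ICR and 8.05 ± 0.49 CPM (SD, n = 3) in NOD/Ltj (−1.05, adjusted p = 0.171, edgeR). Mrps10 had 9.01 ± 1.70 and 4.99 ± 0.21 CPM (SD, n = 3 each, −0.85, adjusted p = 0.112, edgeR). With TMM scaling, medians were thus negative in all lists but those of mTOR and of surveillance and p53. This is a description that was not tested as a difference between lists. The median of all genes moved to 0.093 with library totals and to 0.11 with scaling on the members. The sign of a list's median may therefore depend on the scaling.

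**Figure D5:**
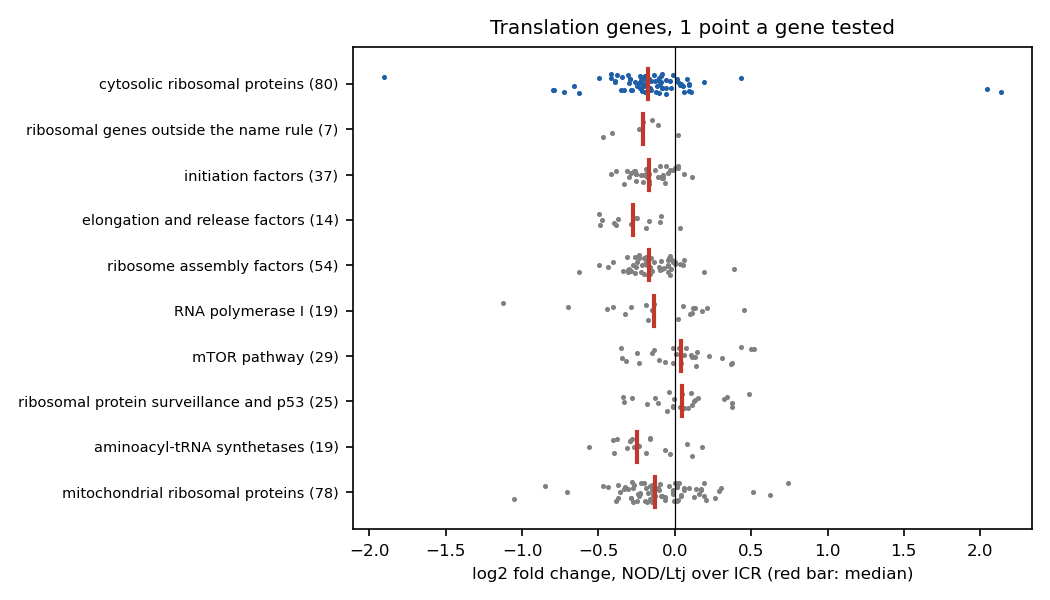
Log2 fold change, NOD/Ltj over ICR, of each gene tested in 10 groups, with the number of genes in brackets, points spread vertically at random and the median as a red bar. Medians lie between −0.27 (elongation and release factors) and 0.045 (surveillance and p53), and Rps2 and Rpl26 are the only points above 1.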

How the data were processed

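Lacrimal gland RNA of 3 ICR and 3 NOD/Ltj samples was measured by 2 × 150 bp sequencing of polyadenylated RNA, per the labels' protocols. What the authors deposited are estimated counts of each gene, unscaled. Tools named in the submitters' processing notes are fastp, StringTie and edgeR. The aligner, the build and the strandedness were not given in the sources used here. A test for raw counts was planned and kept, since all values were whole. Of counts from 1 to 40, 30.9% were multiples of 4 (25% without steps). This small excess does not establish a step of 4 counts a fragment. With such a step, 3 fragments, the most that a count of 0 allows at 95% confidence, are 12 counts, the limit used. Of 55401 identifiers, 26034 were at 0 everywhere and 260 had no GENCODE M21 symbol. Members and gene lists were chosen with earlier results of these data known.

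Differences were tested over all genes with edgeR 4.0.16 in R 4.3.3 (quasi-likelihood, TMM, filterByExpr, two-sided, no block). DESeq2 1.42.0 and limma-voom (limma 3.58.1), other scalings, filters, a replicate block and leaving out each library were alternatives. The procedure was tested on simulated data that varied less between libraries than these and held only large changes in genes with many counts. That test therefore does not show how the procedure performs on these libraries. The common biological coefficient of variation was 0.421 and the median standard error of a member's log2 fold change 0.235. Library pairs differed by 116 to 1134 chi-square per degree of freedom, and each was treated as 1 sample. These values do not show whether the samples come from separate animals. Copies were GENCODE M21 transcripts of other genes matching a member's with at least 95% identity over at least 250 bases and 60% of the copy (BLAST+ 2.17.0). Named members were Rps2, called or untested members, the 8 most positive and negative at 5 CPM or more, the 5 highest and lowest per length, listed paralogs and regulators, and of other lists the 2 largest values.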

Additional observations from a re-analysis of the deposited data

How the results depend on the processing

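The call of Rps2 was kept in 5 of 6 fits that left out 1 library and with DESeq2 (2.14), limma-voom (2.13), library totals (2.28), scaling on the other members (2.26) and both other filters. Leaving out a library gave 2.02 to 2.20 for its log2 fold change, 2.14 to 2.48 for its difference from the median of the other members, and 0 to 2 members called higher (0 without NOD 3, 2 without ICR 2). With copies added, its log2 fold change was −0.054, its difference from the median 0.15 and the members called 0; with copies of at least 99% identity only, it was −0.27 (adjusted p = 0.781, edgeR), again with 0 called. With copies added and a library left out, an alternative chosen after seeing the data, Rps2 ran from −0.23 to 0.25 (positive without ICR 1 only), Rpl26 from −0.12 to 0.0034 (positive without ICR 1 or ICR 2) and no member was called. No member was called lower in any fit, and the median member stayed negative in every fit (−0.27 to −0.060 with a library left out, and −0.030 without ICR 1 and with copies added).

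Replicate numbers did not pair the samples: deviations of libraries with the same number correlated at −0.16, −0.19 and 0.12. With the replicate block, Rps2 had 2.13 (adjusted p = 0.0249, edgeR), and no call of a member changed. The count of all genes called went from 349 higher and 67 lower to 129 and 25 with the block, to 898 and 285 with DESeq2, to 123 and 20 with limma-voom and to 226 and 40 with library totals. It was 112 and 30 without ICR 2, 120 and 29 without ICR 3, 63 and 10 without NOD 2, and 11 and 2 (0.0676% of genes tested) without NOD 3. Without ICR 1 it was 406 and 118, and without NOD 1 it was 405 and 37.

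Of 33 named members other than Rps2, 17 changed sign with a library left out or another scaling, 1 more (Rpl26) with copies added, and 15 kept their sign in all fits. With a library left out, log2 fold changes ran from −1.09 to 0.092 for Rpl30, −0.14 to 1.07 for Rps27, −0.13 to 0.48 for Rpl39, −0.25 to 0.30 for Rpl17, −0.070 to 0.25 for Rpl13a, −0.23 to 0.018 for Rpl10, −0.38 to 0.071 for Rpl41, −0.34 to 0.0077 for Rps6, −0.21 to 0.0098 for Rps15, −0.24 to 0.19 for Rpl34, −0.17 to 0.17 for Rpl29, −0.34 to 0.034 for Rpl21, −2.94 to 0.59 for Rpl39l, −0.32 to 0.020 for Rps27l, −0.15 to 0.14 for Rpl36a and −0.25 to 0.086 for Rplp1. With library totals the values turned positive for Rpl10 (0.011), Rpl41 (0.0082), Rps15 (0.027), Rpl34 (0.085), Rpl36a (0.032) and Rplp1 (0.038). With scaling on the members they did for Rpl10 (0.013), Rpl41 (0.081), Rps6 (0.0071), Rps15 (0.066), Rpl34 (0.042), Rpl36a (0.11), Rplp1 (0.12) and Rps14 (0.0027). With copies added the sign turned for Rpl26 (−0.036), Rpl17 (−0.015), Rpl29 (−0.021) and Rpl21 (0.0043), and with copies of at least 99% identity for Rpl26 (−0.035), Rpl17 (−0.017), Rpl29 (−0.020) and Rpl21 (0.0014). The cause was not tested. At 3 libraries a strain and a median standard error of 0.235, a shift as small as the family's median was not detectable for a single member.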
